A study of Mus musculus with 9 samples.

Results

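The genes described here are 10 C-type lectin receptors of myeloid cells, namely Clec5a, Clec7a, Clec4e, Clec4d, Clec4b1, Clec12a, Clec4a2, Clec4a4, Clec4a3 and Clec4a1. They were picked by symbol because their signals were lower with GATA2 wild type than with empty vector, so that contrast is given for them as a description with no test. Each had 1 transcript cluster (a set of probes summarized as 1 signal) among the 21072 on the array. Mouse bone marrow cells that lacked lineage markers and carried Sca and Kit had been infected with 1 of 3 retroviruses, sorted for green fluorescent protein after 72 h of culture, and profiled on 9 arrays, 3 per group. The vectors carried the GATA2 variant R396Q, GATA2 wild type, or the fluorescent protein without GATA2 (MIE, the empty vector). Every donor mouse was a C57BL/6 female of 8 weeks, given 150 mg/kg of 5-fluorouracil 6 days ahead of the harvest, so this treatment is common to the 3 groups. GATA2 regulates genes of blood progenitors through its zinc fingers, and both forms were expressed from a retrovirus on top of the cells' own gene. Nothing in the labels ties the replicates of a group to separate animals or cultures, so p-values measure the spread between these samples only.

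Gata2 itself had log2 signals of 10.65, 10.72 and 10.53 with R396Q, 11.50, 11.24 and 10.94 with wild type, and 9.87, 9.67 and 9.65 with empty vector. Transcripts of the vector and of the cells' own gene cannot be told apart in it. It was higher than with empty vector with both forms (log2 difference 0.90, SE 0.14, limma adjusted p = 0.0394 with R396Q, and 1.49, SE 0.14, adjusted p = 0.0016 with wild type), and lower with R396Q than with wild type by -0.59 (SE 0.14, adjusted p = 0.0633, and 0.0222 with the replicate number as a block). The labels give the cell type as HSC and the tissue as blood. With empty vector 7 of 9 measured stem and progenitor cell markers had means above the median of every array (6.06 to 6.19), among them Kit (12.3), Cd34 (13.2), Meis1 (10.2), Hlf (7.25) and Slamf1 (7.11), and Procr (5.16) and Mecom (6.01) lay below it. Mpo, an enzyme of neutrophil precursor granules, had 17.5 to 17.6 on the empty vector arrays.

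C-type lectin receptors are surface proteins that bind sugars, lipids and other ligands of microbes and damaged cells. The activating ones signal through the kinase Syk, either by a tyrosine motif of their own or by pairing with a small adaptor such as the Fc receptor gamma chain or DAP12, and from there through Card9 to cytokine genes. The inhibitory ones carry a tyrosine motif that recruits the phosphatases SHP-1 and SHP-2. Monocytes, macrophages, neutrophils and dendritic cells carry most of them.

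With R396Q the means of all 10 receptors lay below empty vector, with a median log2 difference of -1.82 and a range of -3.41 to -0.23. With wild type all 10 were also lower, with a median of -2.89 and a range of -7.05 to -1.11. The median difference over all clusters was -0.01 in both contrasts. These contrasts share the empty vector arrays. The choice of genes used those arrays too, so the tests of single receptors with R396Q given below are tilted toward a fall. The RNA came from sorted cells in bulk, so that fewer cells of a type and less RNA per cell cannot be told apart. Wild type and empty vector arrays did not overlap in any of the 10, a separation found downward in 11.8% of all clusters, and nothing is read from it because it served to choose the genes.

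**Figure D1:**
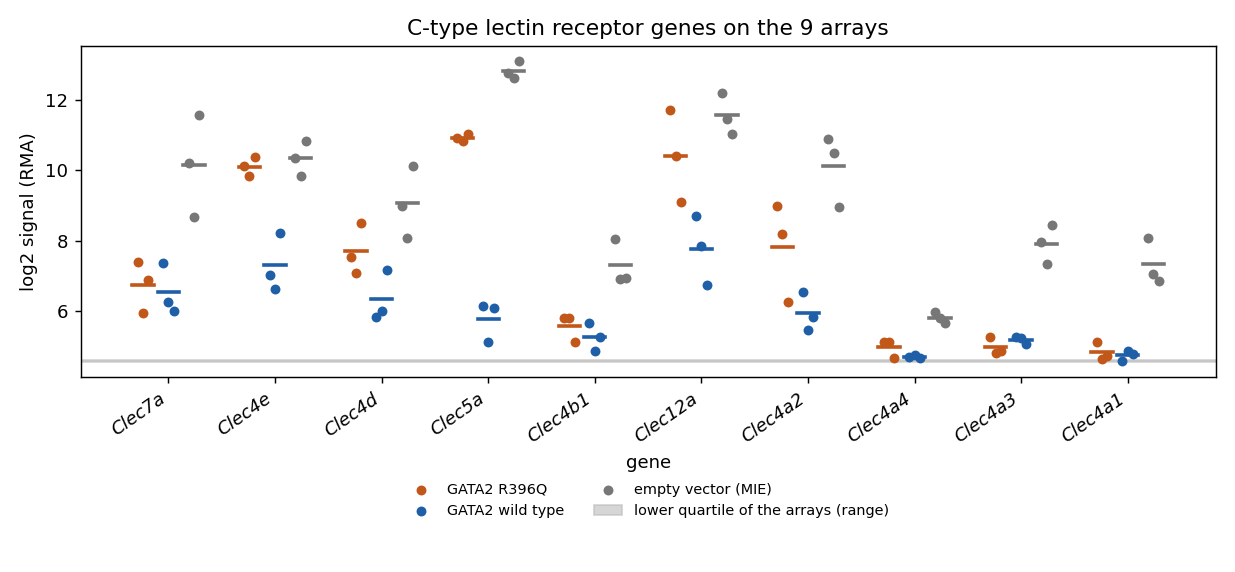
Log2 signal of the 10 receptor genes on each array, with R396Q, wild type and empty vector from left to right for each gene; points are arrays, short lines group means, and the gray band the range of the arrays' lower quartiles (4.54 to 4.60). Clec4e with R396Q overlaps empty vector, and Clec5a and Clec12a with R396Q lie above wild type on every array. The means of Clec4a4, Clec4a3 and Clec4a1 with both GATA2 forms lie above the band and below the median of every array.

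The promoters of 4 receptors whose signals differed in where R396Q lay are shown first, chosen after their values were seen. They are Clec5a, with the lowest wild type value relative to empty vector, Clec4e, whose R396Q signals overlapped empty vector, Clec7a, whose R396Q signals overlapped wild type, and Clec12a, whose R396Q signals lay above wild type and overlapped empty vector. Each is the stretch of 250 bases before the annotated start, 5′ to 3′ on the gene's strand, from RefSeq (GRCm38.p6). Clec5a is at chr6:40585806-40586055 (minus strand), Clec4e at chr6:123289872-123290121 (minus), Clec7a at chr6:129472780-129473029 (minus) and Clec12a at chr6:129349994-129350243 (plus). Capitals mark an ETS motif (GAGGAA) or a C/EBP motif (TTGCNNAA), on either strand. GAGGAA is a form bound by PU.1 of the shorter core GGAA of ETS factors. Other GGAA stretches are not marked or counted.
Clec5a: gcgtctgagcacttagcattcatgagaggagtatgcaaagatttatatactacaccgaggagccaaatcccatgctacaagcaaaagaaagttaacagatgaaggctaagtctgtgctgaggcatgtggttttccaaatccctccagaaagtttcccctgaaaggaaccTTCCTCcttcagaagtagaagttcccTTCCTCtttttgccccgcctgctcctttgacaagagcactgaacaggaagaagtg
Clec4e: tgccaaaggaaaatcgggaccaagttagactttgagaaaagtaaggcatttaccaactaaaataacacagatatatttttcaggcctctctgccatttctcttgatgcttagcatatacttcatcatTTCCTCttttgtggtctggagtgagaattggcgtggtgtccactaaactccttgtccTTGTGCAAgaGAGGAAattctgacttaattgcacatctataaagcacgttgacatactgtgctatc
Clec7a: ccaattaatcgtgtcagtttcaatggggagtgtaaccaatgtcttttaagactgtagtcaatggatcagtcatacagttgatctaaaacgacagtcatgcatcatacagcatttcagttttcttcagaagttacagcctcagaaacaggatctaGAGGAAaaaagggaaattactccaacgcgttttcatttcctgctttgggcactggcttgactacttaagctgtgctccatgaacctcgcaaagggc
Clec12a: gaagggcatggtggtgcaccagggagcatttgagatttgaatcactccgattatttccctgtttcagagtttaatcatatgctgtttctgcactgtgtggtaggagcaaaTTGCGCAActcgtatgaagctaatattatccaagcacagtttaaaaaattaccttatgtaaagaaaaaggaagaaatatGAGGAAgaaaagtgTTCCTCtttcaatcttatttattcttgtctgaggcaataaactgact

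Of the 10 receptors, 9 had a promoter entry. The ETS motif was found in 7 of these 9 windows, against 6252 (23.1%) of all 27025 promoter windows of the same length. In Clec5a it lay at bases -81 to -76 and -55 to -50 from the start, in Clec4e at -123 to -118 and -56 to -51, in Clec7a at -96 to -91, and in Clec12a at -61 to -56 and -47 to -42. Clec4a2 and Clec4a3 had no GAGGAA match, though both windows hold the shorter GGAA. The C/EBP motif was found in Clec4e (-66 to -59) and Clec12a (-140 to -133), against 9.6% of all windows. GATA motifs (AGATAA and its variant TGATAA, or AGATAG and its variant TGATAG, on both strands) were in 0 of the 9 windows and in 27.1% of all windows. No matches overlapped. The motifs were chosen after the windows had been seen, and a match describes letters and not binding.

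**Figure D2:**
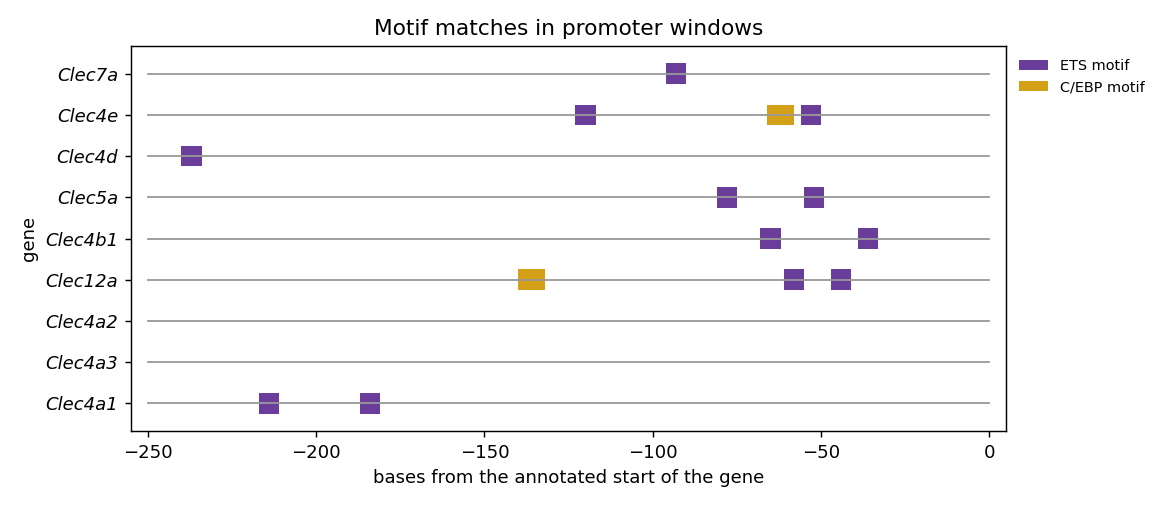
Positions of ETS and C/EBP motif matches in the 250 bases before the annotated start of 9 receptor genes; the x axis is in bases from the start. In Clec5a, Clec4e, Clec4b1 and Clec12a, in this order, the GAGGAA match nearest to the start begins at -55, -56, -39 and -47. Clec4a2 and Clec4a3 hold no GAGGAA.

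Among the activating receptors, Clec5a (MDL-1) pairs with the adaptors DAP12 and DAP10. Its log2 signals were 10.91, 10.83 and 11.05 with R396Q, 6.15, 5.13 and 6.07 with wild type, and 12.76, 12.64 and 13.11 with empty vector. The 3 groups did not overlap, and R396Q lay closer to empty vector than to wild type. Clec5a fell with R396Q by 1.91 on the log2 scale (3.75-fold, SE 0.28, limma adjusted p = 0.0303). The wild type difference from empty vector was -7.05, and R396Q stood 35.4-fold above wild type.

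Clec4e (Mincle), a receptor for mycobacterial cord factor that signals through the Fc receptor gamma chain, had signals of 10.12, 9.84 and 10.37 with R396Q, 7.03, 6.62 and 8.23 with wild type, and 10.35, 9.84 and 10.84 with empty vector. R396Q and empty vector overlapped and shared 1 identical value, and wild type lay below both on every array. The R396Q difference from empty vector was -0.23 (SE 0.44, 95% confidence interval -1.28 to 0.81, limma adjusted p = 0.900). The wild type difference was -3.05. Clec4d (MCL), the neighbouring receptor that forms complexes with Mincle, had signals of 7.53, 7.08 and 8.49 with R396Q, 5.84, 5.99 and 7.18 with wild type, and 8.99, 8.09 and 10.13 with empty vector. Its R396Q arrays overlapped both other groups. The R396Q difference was -1.37 (SE 0.63, adjusted p = 0.462), which passed with the replicate number as a block (SE 0.21, adjusted p = 0.0447), and the wild type difference was -2.73.

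Clec7a (Dectin-1), the receptor for fungal beta-glucan with a Syk-binding motif of its own, differed from Clec5a and Clec4e in that R396Q overlapped wild type. Its signals were 7.39, 5.93 and 6.89 with R396Q, 7.36, 6.26 and 5.99 with wild type, and 10.21, 8.66 and 11.58 with empty vector. Both GATA2 groups lay below every empty vector array. The empty vector arrays themselves spanned 8.66 to 11.58, and the R396Q difference of -3.41 (SE 0.78, 95% confidence interval -5.27 to -1.56) did not pass the test (limma adjusted p = 0.115, and 0.0687 with the block). Clec4b1 (DCAR), which pairs with the Fc receptor gamma chain, had signals of 5.80, 5.80 and 5.12 with R396Q, 5.65, 4.86 and 5.25 with wild type, and 8.06, 6.91 and 6.93 with empty vector. Its R396Q and wild type arrays overlapped, and its R396Q difference of -1.72 (SE 0.38) had an adjusted p of 0.101 without the block and 0.0434 with it.

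Among the inhibitory receptors and their relatives, Clec12a (MICL), which carries an inhibitory motif and binds uric acid crystals, had signals of 11.72, 10.41 and 9.11 with R396Q, 8.70, 7.84 and 6.73 with wild type, and 12.21, 11.46 and 11.03 with empty vector. R396Q overlapped empty vector and lay above wild type on every array. The R396Q difference from empty vector was -1.15 (SE 0.76, 95% confidence interval -2.96 to 0.65, limma adjusted p = 0.623), and the wild type difference was -3.81. Clec4a2 (DCIR1) is a mouse relative of the human receptor CLEC4A with an inhibitory motif. Its signals were 8.99, 8.19 and 6.24 with R396Q, 6.55, 5.46 and 5.82 with wild type, and 10.91, 10.48 and 8.96 with empty vector. Its R396Q arrays reached into both other groups, with a difference from empty vector of -2.31 (SE 0.80, adjusted p = 0.306, and 0.0847 with the block). The wild type difference was -4.17.

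The means of the other DCIR genes lay between the lower quartile and the median of the arrays with both GATA2 forms. They ran from percentile 28.8 of all clusters (Clec4a4 with wild type) to 39.2 (Clec4a3 with wild type). Clec4a3 (DCIR3) had 5.25, 4.79 and 4.86 with R396Q, 5.26, 5.23 and 5.06 with wild type, and 7.95, 7.32 and 8.44 with empty vector. Clec4a1 (DCIR4) had 5.12, 4.63 and 4.73 with R396Q, 4.59, 4.87 and 4.78 with wild type, and 8.07, 7.04 and 6.86 with empty vector. In both genes the GATA2 groups overlapped each other and lay below all empty vector arrays. Clec4a3 fell with R396Q by 2.94 on the log2 scale (SE 0.27, limma adjusted p = 0.00686) and Clec4a1 by 2.50 (SE 0.31, adjusted p = 0.0185). Clec4a4 (DCIR2), an inhibitory receptor of a dendritic cell subset, had 5.13, 5.13 and 4.67 with R396Q, 4.68, 4.74 and 4.67 with wild type, and 5.97, 5.80 and 5.65 with empty vector. It fell by 0.83 with R396Q (SE 0.14, adjusted p = 0.0467), though its empty vector signals already lay below the median of every array. The lower quartile of the arrays was 4.54 to 4.60, so that signals of these genes near 5 leave little room for a further difference, and a signal above background is not shown there. The Clec4a genes are close relatives, and whether their probes also bind each other's transcripts was not tested.

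In all, 4 of the 10 receptors fell with R396Q (Clec5a, Clec4a3, Clec4a1 and Clec4a4), none rose and 6 did not pass, where 0.569% of all clusters fell (limma, Benjamini-Hochberg adjusted p under 0.05 over 21072 clusters). With the replicate number as a block 6 of 10 fell, Clec4d and Clec4b1 in addition, against 1.34% of all clusters. The R396Q and empty vector signals did not overlap in 6 of the 10, against 7.1% of clusters that were lower in this way. The rule that picked the genes used the wild type and empty vector arrays and not the R396Q arrays. The genes were also chosen with earlier results of these data known. Such a choice favours genes with high empty vector signals, which tilts these counts and the adjusted p of each receptor toward a fall with R396Q. The shares over all clusters carry no such tilt, so they are no like comparison. The calls were sensitive to single arrays. The Clec4a3 call was kept without any 1 of the 9 arrays (adjusted p up to 0.0401). The Clec4a1 call was lost without any 1 of the 3 R396Q arrays (0.0574 to 0.0861), and that of Clec5a without any 1 empty vector or R396Q array or wild type 3 (0.0554 to 0.126). The Clec4a4 call was lost without any 1 of the 9 arrays (0.0544 to 0.110). In a fit of R396Q and empty vector arrays alone, only Clec5a of the 10 passed (adjusted p = 0.0284).

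Set beside each other, the receptors differed in where R396Q lay relative to wild type. No test is given for this contrast, since the wild type arrays were used to choose the genes. R396Q lay above wild type on all arrays in Clec5a (log2 difference 5.15, SE 0.28), Clec4e (2.81, SE 0.44) and Clec12a (2.66, SE 0.76), a separation seen upward in 11% of all clusters. The groups overlapped in Clec4a2 (1.86, SE 0.80) and Clec4d (1.37, SE 0.63). For Clec4b1 (0.32, SE 0.38), Clec4a4 (0.28, SE 0.14), Clec7a (0.20, SE 0.78), Clec4a1 (0.08, SE 0.31) and Clec4a3 (-0.21, SE 0.27) the groups also overlapped. In Clec4a4, Clec4a3 and Clec4a1 the means of both groups lay between the lower quartile and the median of the arrays. The means of Clec4b1, 5.57 with R396Q and 5.26 with wild type, lay below the median of every array. Low signals also limit the room for a difference there. The means of Clec7a, 6.74 with R396Q and 6.53 with wild type, lay above the median of every array. Its signals on R396Q 2 (5.93) and wild type 3 (5.99) lay below the median of every array.

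Arrays with the same replicate number shared part of their variation. Clec4d and Clec4e were highest on the array with number 3 in all 3 groups, while Clec12a was lowest there in all 3 groups. The neutrophil markers were also lowest there, with a mean of 9.25 on R396Q 3 against 11.5 and 12.4 on the other R396Q arrays, 6.89 on wild type 3 against 8.74 and 9.66 on the other wild type arrays, and 10.3 on empty vector 3 against 12.4 and 13.1 on the other empty vector arrays. Their part in the receptor values was not tested. Within the 3 replicate numbers the median R396Q difference of the 10 receptors from empty vector was -1.88, -1.46 and -2.00, and the median wild type difference was -3.23, -2.29 and -3.04.

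All 10 genes lie on chromosome 6 in the reference annotation. A run of 9 neighbouring protein-coding genes holds 7 of them, in the order Clec4a1, Clec4a3, Clec4a4, Clec4b1, Clec4a2, Clec4b2, Clec4n, Clec4d and Clec4e. From Clec4a1 to Clec4e in that order the R396Q differences from empty vector were -2.50, -2.94, -0.83, -1.72, -2.31, -2.04, -1.89, -1.37 and -0.23. Clec4e, at the end of the run, was the sole gene of the 9 with an R396Q difference under 0.5 in size. The wild type differences showed no such gap at Clec4e, at -2.58, -2.72, -1.11, -2.04, -4.17, -2.71, -2.65, -2.73 and -3.05. Clec4n (Dectin-2), a receptor for fungal mannans, and Clec4b2 are not among the 10. Their empty vector signals varied widely, at 8.00 to 11.1 for Clec4n and 6.19 to 9.86 for Clec4b2, and they passed in neither contrast (limma adjusted p = 0.476 and 0.450 with R396Q, 0.138 and 0.141 with wild type). With the block both fell with wild type (0.0204 and 0.0350).

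**Figure D3:**
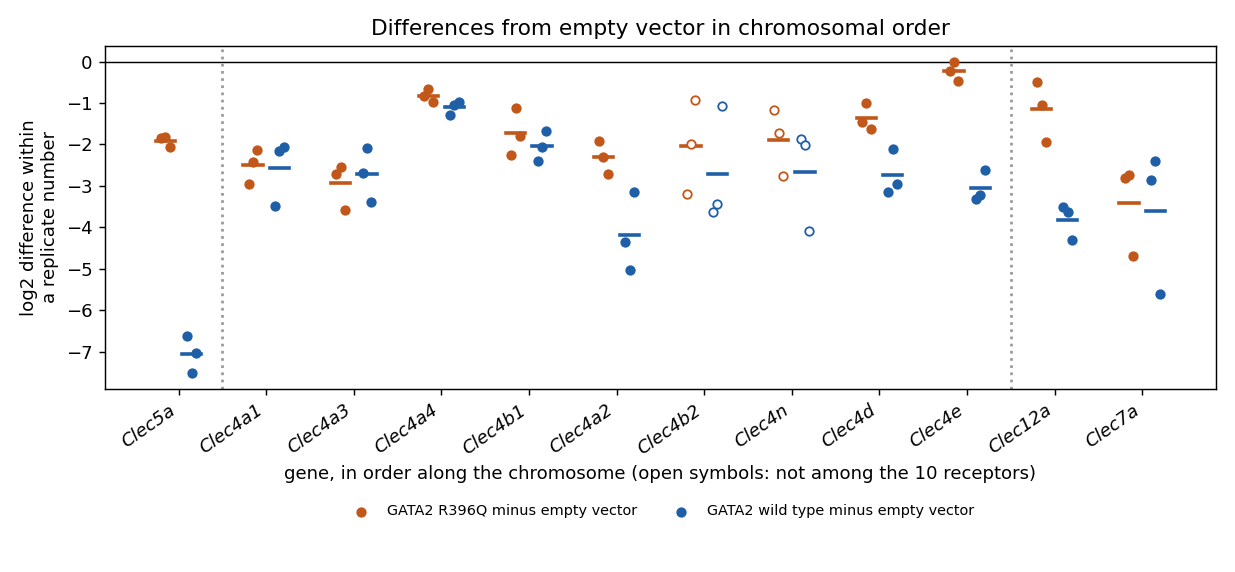
Log2 difference from empty vector within each replicate number, for R396Q (left) and wild type (right) at each gene, with genes in order along the chromosome; points are replicate numbers, short lines their means, open symbols genes outside the 10 receptors, and dotted lines part stretches that are not adjacent; the genes between Clec12a and Clec7a are not drawn. Clec4e with R396Q stands at -0.47 to 0.00, while every other closed symbol lies below 0.

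Clec12a and Clec7a lie at the ends of a run of 6 genes, with Clec12b, Clec1b, Clec9a and Clec1a between them. None of these 4 genes passed in either contrast with empty vector. Clec1b (CLEC-2), the podoplanin receptor of platelets, had means of 6.89 with R396Q, 7.34 with wild type and 7.11 with empty vector (limma adjusted p = 0.932 with R396Q and 0.855 with wild type). Clec12b had 1 identical signal of 4.10 on all 9 arrays, Clec9a had 3.85 to 4.05 and Clec1a 5.14 throughout, all of them below the array medians.

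Of 40 other measured C-type lectin and lectin-like genes (41 listed), 2 fell and 0 rose with R396Q (limma). Of all clusters 0.569% fell and 0.66% rose with R396Q. An unadjusted p under 0.05 with R396Q was found for 5 of the 40. With the block 2 fell and 1 rose with R396Q, where 1.34% of all clusters fell and 1.66% rose. With wild type 5 fell and 1 rose, where 4.35% of all clusters fell and 4.64% rose. With the block 6 fell and 2 rose with wild type, where 9.41% of all clusters fell and 8% rose. This list is what remains of the family after the 10 were picked, so its count is no measure of the family. Mgl2, a receptor for galactose-type sugars on macrophages and dendritic cells, fell by 2.11 with R396Q (SE 0.13, adjusted p = 0.00244) and by 2.02 with wild type (SE 0.13, adjusted p = 0.000393). Mrc1, the macrophage mannose receptor, fell by 4.75 with R396Q (SE 0.44, adjusted p = 0.00707) and by 4.62 with wild type (SE 0.44, adjusted p = 0.00173). Their R396Q and wild type means were 6.47 and 6.57 for Mgl2 and 6.16 and 6.29 for Mrc1.

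Cd93, a glycoprotein of progenitors and myeloid cells, differed from empty vector by -0.56 with R396Q (SE 0.47, limma adjusted p = 0.707) and fell by 2.46 with wild type (SE 0.47, adjusted p = 0.0210). Klrb1f, a lectin-like receptor gene, differed by 0.24 with R396Q (SE 0.34, adjusted p = 0.849) and fell by 1.77 with wild type (SE 0.34, adjusted p = 0.0221). Klrb1f was 4.03-fold higher with R396Q than with wild type (SE 0.34 on the log2 scale, adjusted p = 0.0181), and Cd93 was higher by 1.91 (SE 0.47, adjusted p = 0.0681, and 0.00223 with the block). Ly75, which fell with wild type (adjusted p = 0.0445, and 0.0660 with the block), Cd209c, which rose, and Clec2i, which was higher with R396Q than with wild type (1.32, SE 0.21, adjusted p = 0.0147, where 2.67% of all clusters were higher), complete the calls and were chosen after their values were seen.

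None of the 3 adaptors of the activating receptors passed in any comparison, and none had an unadjusted p under 0.05 against empty vector (limma). Fcer1g, the Fc receptor gamma chain used by Clec4e, Clec4d and Clec4b1, had signals of 12.10, 12.23 and 12.29 with R396Q, 12.51, 12.11 and 12.01 with wild type, and 12.11, 11.65 and 11.98 with empty vector. The 3 groups overlapped, with differences from empty vector of 0.30 with R396Q (95% confidence interval -0.09 to 0.68, limma adjusted p = 0.538) and 0.30 with wild type (-0.09 to 0.68, adjusted p = 0.353). Tyrobp, which encodes DAP12, had means of 13.25 ± 0.11 with R396Q, 13.71 ± 0.77 with wild type and 13.93 ± 0.84 with empty vector (SD, n = 3 each). The interval of its difference from empty vector was -1.86 to 0.51 with R396Q (adjusted p = 0.663) and -1.40 to 0.97 with wild type (adjusted p = 0.856). Hcst, which encodes DAP10, had means of 9.54 ± 0.44 with R396Q, 9.30 ± 0.52 with wild type and 8.87 ± 0.48 with empty vector (limma adjusted p = 0.534 with R396Q and 0.554 with wild type). All 3 adaptors are also carried by mast cells, basophils or lymphocytes.

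Downstream of the adaptors, none of 23 measured Syk pathway genes passed with R396Q, where 1.23% of all clusters passed in either direction and 0.66% rose (limma). An unadjusted p under 0.05 was found for 9 of them, and with the block none passed. With wild type 7 of the 23 fell and 2 rose, where 4.35% of all clusters fell and 4.64% rose. Syk itself had means of 8.45 with R396Q, 8.30 with wild type and 8.59 with empty vector (adjusted p = 0.742 with R396Q and 0.249 with wild type). Card9, the adaptor that links Syk to NF-kappa-B, had signals of 7.66, 7.83 and 7.60 with R396Q, 6.64, 6.50 and 6.33 with wild type, and 8.40, 7.63 and 8.08 with empty vector. Wild type lay below both other groups, and Card9 fell by 1.55 with wild type (SE 0.19, adjusted p = 0.00434) and was higher with R396Q than with wild type by 1.20 (SE 0.19, adjusted p = 0.0150). Vav3 fell by 1.95 with wild type (SE 0.18, adjusted p = 0.00136), and Rel, an NF-kappa-B subunit, by 1.97 (SE 0.24, adjusted p = 0.00382). Both were higher with R396Q than with wild type (2.52 and 1.94, adjusted p = 0.000814 and 0.00563). Lcp2 (SLP-76), an adaptor also used by T cells, platelets and mast cells, rose by 0.98 with wild type (SE 0.13, adjusted p = 0.00615).

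Of the phosphatases used by inhibitory receptors, Ptpn6 (SHP-1) fell with wild type by 1.28 (SE 0.23, limma adjusted p = 0.0191). Its means were 12.46 with R396Q, 11.78 with wild type and 13.05 with empty vector, and the R396Q difference of -0.59 had an adjusted p of 0.388 (0.0527 with the block). Ptpn11 (SHP-2) and Inpp5d (SHIP-1) passed in none of the 3 comparisons.

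**Figure D4:**
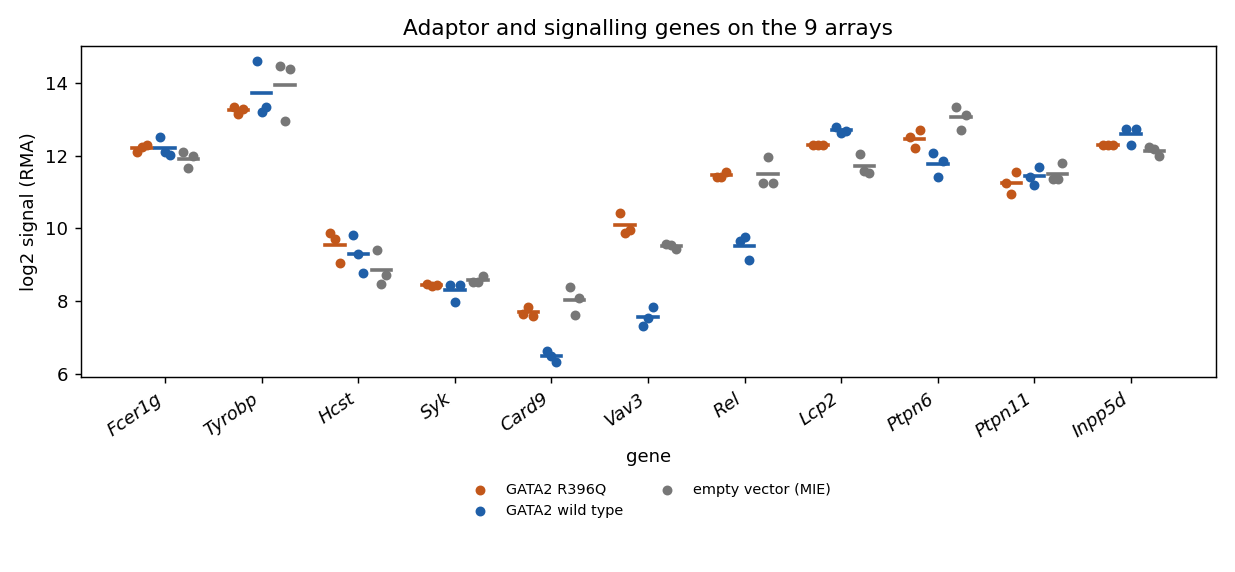
Log2 signal per array of 3 adaptor genes, 5 Syk pathway genes and 3 phosphatase genes, with R396Q, wild type and empty vector from left to right for each gene; points are arrays and short lines group means. The adaptors overlap between groups, whereas Card9, Vav3 and Rel with wild type lie below all other arrays.

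Genes that such receptors can switch on or work with did not move one way. Of 22 measured, 1 rose and none fell with R396Q (limma, 5 with an unadjusted p under 0.05, and 2 fell with the block), and 4 rose and 4 fell with wild type. Of all clusters 0.66% rose with R396Q (1.34% fell with the block), and 4.64% rose and 4.35% fell with wild type. Il6, a cytokine, rose by 3.22 with R396Q (SE 0.23, adjusted p = 0.00259) and by 3.50 with wild type (SE 0.23, adjusted p = 0.000393). Tnf fell by 1.63 with wild type (SE 0.21, adjusted p = 0.00478), with means of 8.78 with R396Q, 7.17 with wild type and 8.80 with empty vector. Ncf4 and Ncf1, subunits of the phagocyte oxidase, fell with wild type by 2.02 (SE 0.23, adjusted p = 0.00331) and 1.63 (SE 0.23, adjusted p = 0.00713). Il6, Tnf and other cytokines in this list are also made by mast cells.

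The profile of the 10 receptors over the 9 arrays, taken as the mean after subtraction of each gene's own mean, was compared with 4061 other genes whose signal spanned at least 1 log2 unit. The 8 closest by Pearson's r were Ptprc (0.990), Unc93b1 (0.989), Mrgpra2a (0.988), Tgfbi (0.987), Tmem38b (0.985), Ncf4 (0.984), Ggct (0.983) and Ly9 (0.982). These points share group and replicate number, and r is a description. Ptprc, the leukocyte surface phosphatase CD45, had means of 11.1 with R396Q, 10.3 with wild type and 12.0 with empty vector. Unc93b1, which escorts endosomal Toll-like receptors, had 8.00, 6.90 and 9.44 in the same groups. Tgfbi, a secreted matrix protein of monocytes, had 8.92 with R396Q, 6.88 with wild type and 12.9 with empty vector.

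Markers of cell types that carry these receptors also fell in part. Of 11 measured monocyte genes, 2 fell with R396Q and 4 with wild type, and none rose with either, the list medians being -1.27 with R396Q and -3.31 with wild type. With the block 3 fell with R396Q and 7 with wild type. Of all clusters 0.569% fell and 0.66% rose with R396Q, and 4.35% fell and 4.64% rose with wild type. With the block these shares were 1.34% and 1.66% with R396Q, and 9.41% and 8% with wild type. The same shares apply to the marker lists that follow. The mean monocyte marker signal per array was 8.45 to 9.04 with R396Q, 7.21 to 8.45 with wild type and 9.46 to 11.01 with empty vector. Ccr2, the chemokine receptor of monocytes, fell by 4.80 with R396Q (SE 0.57, limma adjusted p = 0.0157) and by 3.31 with wild type (SE 0.57, adjusted p = 0.0150). F13a1, a clotting factor subunit of monocytes, fell by 3.39 with R396Q (SE 0.50, adjusted p = 0.0315) and fell by 3.33 with wild type (SE 0.50, adjusted p = 0.00881). Csf1r, the receptor for macrophage colony-stimulating factor, differed from empty vector by -3.11 with R396Q (SE 0.64, adjusted p = 0.0886, and 0.0450 with the block) and fell by 3.32 with wild type (SE 0.64, adjusted p = 0.0230). Lyz2, lysozyme, differed by -0.43 with R396Q (SE 0.65, adjusted p = 0.865) and fell by 4.07 with wild type (SE 0.65, adjusted p = 0.0110). Not all genes of the list had lower means. Adgre1 differed by 1.36 with R396Q (SE 0.53, adjusted p = 0.377) and by 0.13 with wild type (SE 0.53, adjusted p = 0.935). Cx3cr1 differed by -1.01 with R396Q (SE 0.26, adjusted p = 0.155) and by 0.37 with wild type (SE 0.26, adjusted p = 0.467).

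Of 14 neutrophil genes, 1 fell with R396Q and 5 with wild type, and with the block 2 fell with R396Q and 10 with wild type. The list medians were -0.91 with R396Q and -3.93 with wild type. The mean signal per array was 9.25 to 12.4 with R396Q, 6.89 to 9.66 with wild type and 10.3 to 13.1 with empty vector. Mmp8, the neutrophil collagenase, fell by 2.39 with R396Q (SE 0.35, limma adjusted p = 0.0315) and by 6.03 with wild type (SE 0.35, adjusted p = 0.000298). Some genes of the list had higher means than with empty vector, without a call. With R396Q they were Ctsg (0.61, SE 0.47), Ngp (0.67, SE 2.57) and Retnlg (0.63, SE 1.38). With wild type it was Retnlg (0.27, SE 1.38). Of 11 dendritic cell genes, 1 fell with R396Q, and 4 fell and 1 rose with wild type. The R396Q call was Batf3, by 0.26 (SE 0.03, limma adjusted p = 0.0157), with signals below the median of every array in all groups. Flt3, which fell with wild type, is also in the progenitor list. With empty vector 6 of the 11 had means above the median of every array, with H2-Ab1 at 9.65 and Irf8 at 8.07, and 5 lay below it, with Xcr1 at 3.83 and Siglech at 5.75.

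Among markers of other lineages, none of 11 erythroid, 9 megakaryocyte and 11 mast cell and basophil genes passed with R396Q, while with wild type 9, 8 and 6 of them rose and none fell (limma). With the block 1 megakaryocyte, 1 mast cell or basophil and 1 lymphoid gene rose with R396Q. At an unadjusted p under 0.05 with R396Q there were 0 erythroid, 2 megakaryocyte and 3 mast cell or basophil genes. Of 10 lymphoid genes none passed with either form against empty vector (1 and 0 at an unadjusted p under 0.05 with R396Q and wild type). Of 9 progenitor genes, 2 rose (Slamf1 and Cd48) and 1 fell (Kit, by 1.81, SE 0.08, adjusted p = 0.00046) with R396Q, and 1 rose (Slamf1) and 4 fell (Kit, Cd34, Cd48 and Flt3) with wild type. The part of these shifts in the receptor values was not tested.

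**Figure D5:**
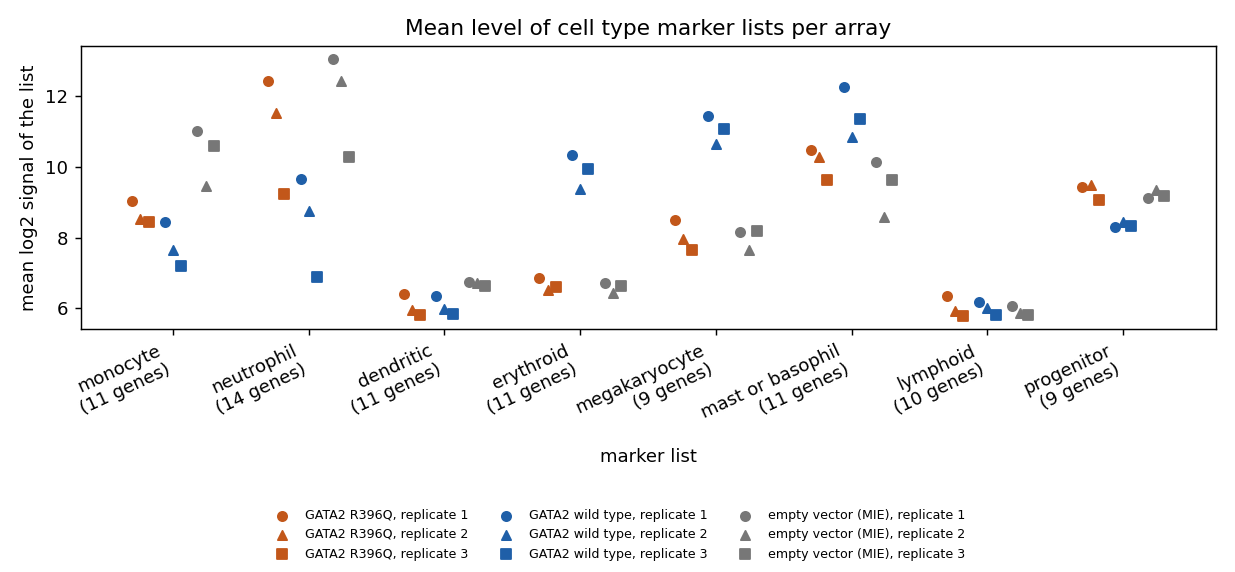
Mean log2 signal per array of 8 marker lists, with R396Q, wild type and empty vector from left to right in each list; symbols mark the replicate number. By group mean the monocyte and neutrophil lists are lowest with wild type and the erythroid, megakaryocyte and mast cell lists are highest with it, and the neutrophil list is lowest on the array with number 3 in each group.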

How the data were processed

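The authors made the deposited log2 signals, 1 for each cluster on each array, by RMA (robust multiarray average) with Affymetrix Expression Console, as the submitters' processing notes give it. Versions and the annotation build are not given in the sources used here, and the label's array type could not be matched to the cluster identifiers. All 9 columns were used. Symbols came from the platform annotation, updated through gene identifiers for 418 of 18992 clusters with 1 symbol, and the brightest cluster of a symbol was taken. Limma 3.58.1 (R 4.3.3) fitted 1 mean per group over all 9 arrays (6 residual and 0.956 prior degrees of freedom), 2-sided, with Benjamini-Hochberg adjustment over 21072 clusters per comparison and a threshold of 0.05, and was tested on simulated data. The number of arrays limits the precision. A separation of groups means that every array of one lies above every array of the other.

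The receptors, the gene lists and the rule for named genes were chosen with earlier results of these data known. Named genes were the 10 receptors, Gata2, fixed partners (Fcer1g, Tyrobp, Hcst, Syk, Card9, Ptpn6, Clec1b), up to 4 called genes per list and comparison with the smallest p, the 8 closest profiles and the lectin genes between the receptors on the chromosome. The text prints a part of them, and adds Procr, Mecom, Hlf, Meis1, Xcr1, Siglech, H2-Ab1, Irf8, Adgre1, Cx3cr1, Ctsg, Ngp and Retnlg. These were chosen after their values were seen to show both ends of their marker lists. Ptpn11 and Inpp5d, which complete the phosphatase list, were also added.

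Arrays with the same replicate number in different groups deviated together from their group means (r of 0.451 to 0.693 in 9 pairs, against -0.537 to -0.0900 in 18 pairs with different numbers). The labels do not say what the number stands for. It was used as a block in an alternative fit. Other alternatives were fits of 2 groups, trend and robust variance, median subtraction, quantile normalization, leaving out the dimmest 30% of clusters, averaging a symbol's clusters, leaving out each array, and, added after seeing the data, dropping clusters that held under 6 distinct values.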

Additional observations from a re-analysis of the deposited data

How the results depend on the processing

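With the replicate number as a block, 632 clusters passed between R396Q and empty vector, against 259 without it, and 6 of the 10 receptors against 4. The block ended no receptor call. In fits of only the groups compared, 94 clusters, 1 of the 10 receptors and 73 calls over the other lists and 3 comparisons passed, against 259, 4 and 115. Fewer arrays enter those fits. Leaving out single arrays gave 1 to 3 receptors, 85 to 304 clusters and 84 to 108 list calls. Trend and robust variance, both scalings, the brightness filter, averaged clusters and the filter on tied values each gave 4 receptors. Over single arrays left out, the Clec4e difference of R396Q from empty vector ran from -0.48 to 0.0155, the value without empty vector 3, and the cause was not tested. Within replicate number 2 the receptor medians were -1.46 (R396Q with empty vector) and -2.29 (wild type with empty vector), and within number 1 the median of R396Q with wild type was 1.11, against 0.84 over all numbers. That median ran from 0.74 to 1.14 without single arrays. Signals near the lower quartile of the arrays limit the size of any fall.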
